A study of Mus musculus with 6 samples.

Results

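Mitochondrial ribosomal proteins were taken as every probe set whose platform annotation named exactly 1 gene with a symbol of Mrpl or Mrps followed by a number. The rule gave 156 of the 45101 probe sets on the array, for 76 genes, of which 47 carried a large subunit symbol (Mrpl) and 29 a small subunit symbol (Mrps). Another 4 probe sets were annotated to a mitoribosomal gene together with a neighbouring or related gene (Mrpl30 with Gm6238, Mrpl53 with Ccdc142, Mrps34 with Nme3) and were left out, so Mrpl30 and Mrpl53 were not analysed here. The RNA came from mouse hearts and was hybridised to 6 Affymetrix arrays. The 3 arrays of the first group carried RNA of C57BL/6 mice that overexpressed hAT1R, the human type 1 receptor for angiotensin II, and the 3 of the second that of normal C57BL/6 mice. Per the series design text, age and sex were matched between the groups, and neither the labels nor the design text name the transgene's promoter, the founder lines or the age.

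Mitochondria keep their own ribosome, which translates only the few membrane subunits of the respiratory chain and ATP synthase that the mitochondrial genome encodes. Its RNAs come from that genome, but all of its proteins are encoded in the nucleus and imported, so nuclear and mitochondrial genes have to be expressed in step. The small subunit reads the mRNA and the large subunit forms the peptide bond and feeds the nascent chain to the inner membrane. Some of the proteins have a counterpart in the bacterial ribosome and others were added in the mitochondrial lineage. The heart is rich in mitochondria, and inherited defects of some of these proteins cause cardiomyopathy in humans.

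The values were on the log2 scale, with array medians from 3.25 to 3.31. The chip lot field of the instrument records carried the word of the opposite group on each of the 6 arrays ("control" on the arrays labelled transgenic, "transgene" on the others), so "labelled transgenic" is written throughout, and taking the typed names would turn the sign of every difference below. Xist, the RNA of the inactive X chromosome, was high (above 9) on labelled transgenic arrays 1 and 3 and on non-transgenic array 2, that is on 2 of 3 arrays in the first group and 1 of 3 in the second, an unequal count beside the matching for sex that the design text states. Fluidics station 2 served non-transgenic array 1 and all 3 labelled transgenic ones, and station 3 served non-transgenic arrays 2 and 3. Scanning went through the labelled transgenic arrays first, so scan order and group cannot be told apart. Whether every array of a group came from a separate animal is not stated. Xist was low on labelled transgenic array 2 (2.58) and on non-transgenic arrays 1 and 3 (2.49 and 3.01). With high and low Xist in both groups, neither group can be a single RNA sample hybridised 3 times. The p-values cover only the spread between these arrays, which may be technical in part. In tissue RNA, fewer cells of a type and less RNA per cell cannot be told apart.

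Promoter windows were looked at because most members differed in the same direction. The RefSeq table (GRCm38.p6) held a window from 250 bases before to 50 after the start for 67 of the 76 genes, in 73 windows. Both strands were searched for the palindromic site of nuclear respiratory factor Nrf1, for CCGGAAG, a form of the ETS site bound by GABP, and for AANATGGCG, a form of the Yy1 site. The first stood in 12 member windows (16.4%, against 4.6% of all 32851 windows), the second in 25 (34.2% against 8.86%) and the third in 11 (15.1% against 2.38%). One or more of the 3 stood in 40 windows (54.8% against 14.2%). The TATAAA box stood in 5 (6.85% against 13.6%), and TCAAGGTCA, a form of the site of the estrogen-related receptors, in 0 (0.423% of all windows). The comparison was with all windows. Windows of genes alike in base content or in expression in heart were not compared. A further motif, the long site of Zfp143, was added after the windows below had been read. Of the 67 genes with a window, it stood only in those of Mrpl34 and Mrps22, and in 0.195% of all windows. The 5 windows shown were picked by the differences of their genes. Mrpl41 and Mrpl34 had the lowest moderated t of the large subunit and Mrps22 the lowest of the small subunit. Mrpl44 had the lowest among genes with an Nrf1 match, and Mrpl33 was the gene that lay highest. Capitals mark matches to the Nrf1, ETS, Yy1 or Zfp143 motif on either strand, and the sequence reads along the gene. The windows are chr2:24975049-24975348 (minus strand) for Mrpl41, chr8:71464676-71464975 (plus strand) for Mrpl34, chr9:98601630-98601929 (minus strand) for Mrps22, chr1:79775768-79776067 (plus strand) for Mrpl44 and chr5:31613701-31614000 (plus strand) for Mrpl33, all in GRCm38.p6.
Mrpl41: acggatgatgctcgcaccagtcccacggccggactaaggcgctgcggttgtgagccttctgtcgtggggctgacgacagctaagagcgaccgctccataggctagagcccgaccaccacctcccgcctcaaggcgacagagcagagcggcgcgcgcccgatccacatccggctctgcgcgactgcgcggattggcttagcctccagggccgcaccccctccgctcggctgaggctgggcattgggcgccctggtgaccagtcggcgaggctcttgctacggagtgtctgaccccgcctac
Mrpl34: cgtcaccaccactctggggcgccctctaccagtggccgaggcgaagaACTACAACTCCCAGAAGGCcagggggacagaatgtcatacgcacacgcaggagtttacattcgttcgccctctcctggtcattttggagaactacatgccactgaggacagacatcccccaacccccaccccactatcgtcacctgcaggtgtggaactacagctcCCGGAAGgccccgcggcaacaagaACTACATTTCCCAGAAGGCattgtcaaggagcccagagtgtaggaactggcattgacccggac
Mrps22: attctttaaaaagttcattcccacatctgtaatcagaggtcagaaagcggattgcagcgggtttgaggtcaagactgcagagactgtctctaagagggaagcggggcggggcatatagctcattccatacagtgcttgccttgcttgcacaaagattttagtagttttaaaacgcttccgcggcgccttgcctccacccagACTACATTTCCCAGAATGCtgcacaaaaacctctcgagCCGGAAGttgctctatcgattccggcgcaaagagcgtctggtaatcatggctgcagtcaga
Mrpl44: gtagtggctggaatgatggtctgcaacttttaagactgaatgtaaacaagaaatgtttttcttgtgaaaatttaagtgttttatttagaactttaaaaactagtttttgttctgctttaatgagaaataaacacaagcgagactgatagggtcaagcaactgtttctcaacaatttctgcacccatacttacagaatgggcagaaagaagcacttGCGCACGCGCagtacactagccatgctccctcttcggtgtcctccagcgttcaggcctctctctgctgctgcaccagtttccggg
Mrpl33: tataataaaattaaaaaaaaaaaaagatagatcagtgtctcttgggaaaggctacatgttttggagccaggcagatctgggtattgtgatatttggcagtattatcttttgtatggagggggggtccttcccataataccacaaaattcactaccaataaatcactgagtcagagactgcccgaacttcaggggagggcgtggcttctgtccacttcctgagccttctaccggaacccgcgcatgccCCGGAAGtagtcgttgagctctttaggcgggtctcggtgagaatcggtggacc
The median difference of the genes with 1 or more of the first 3 motifs was -0.13 and that of the genes without was -0.14. By motif, the medians with and without a match were -0.10 and -0.16 for ETS, -0.14 and -0.14 for Nrf1, and -0.12 and -0.14 for Yy1, with no test made. A match describes letters only and says nothing on binding.

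The 76 genes lay slightly but broadly lower on the labelled transgenic arrays. With 1 probe set a gene, the brightest, 67 of 76 had a negative difference (88.2%), where 47.6% of all 11016 genes tested did. The median difference was -0.14, the middle 50% of the genes ran from -0.26 to -0.08, and the median over all genes tested was 0.01. No single gene passed the test over the whole array. In limma's moderated test with Benjamini-Hochberg adjustment over 22518 probe sets, 0 of the 127 member probe sets tested had an adjusted p under 0.05, where 0.218% of all probe sets did, and their lowest adjusted p was 0.0671. Of the 127 probe sets, 38 were lower and 2 higher at an unadjusted p under 0.05 (6.98% and 9.41% of all probe sets), and 51 were lower and 4 higher without overlap between the groups (9.78% and 13.2%). At an unadjusted p under 0.05 by gene, 28 of 76 genes were lower (7.76% of all genes) and 1 was higher (10.4% of all genes). The 3 labelled transgenic values all lay below the 3 others in 37 genes, where 10.9% of all genes did so, and all above them in 3, where 14.3% did so.

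On the brightest probe set of each gene, the large and the small subunit had similar medians. Large subunit genes had a median difference of -0.15, with 41 of 47 negative, 19 lower and 1 higher at an unadjusted p under 0.05, and a range from -0.55 to 0.33. Small subunit genes had a median of -0.13, with 26 of 29 negative, 9 lower and 0 higher at an unadjusted p under 0.05 in limma, and a range from -0.49 to 0.15. The medians differed by -0.016. Per array, with each gene set to its own mean over the 6 arrays, the large minus small difference was also taken. It was -0.052, -0.026 and 0.024 on labelled transgenic arrays 1, 2 and 3. On non-transgenic arrays 1, 2 and 3 it was 0.021, -0.017 and 0.042. The SD of this difference between arrays of a group was 0.035. No test was made on medians of these lists.

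**Figure D1:**
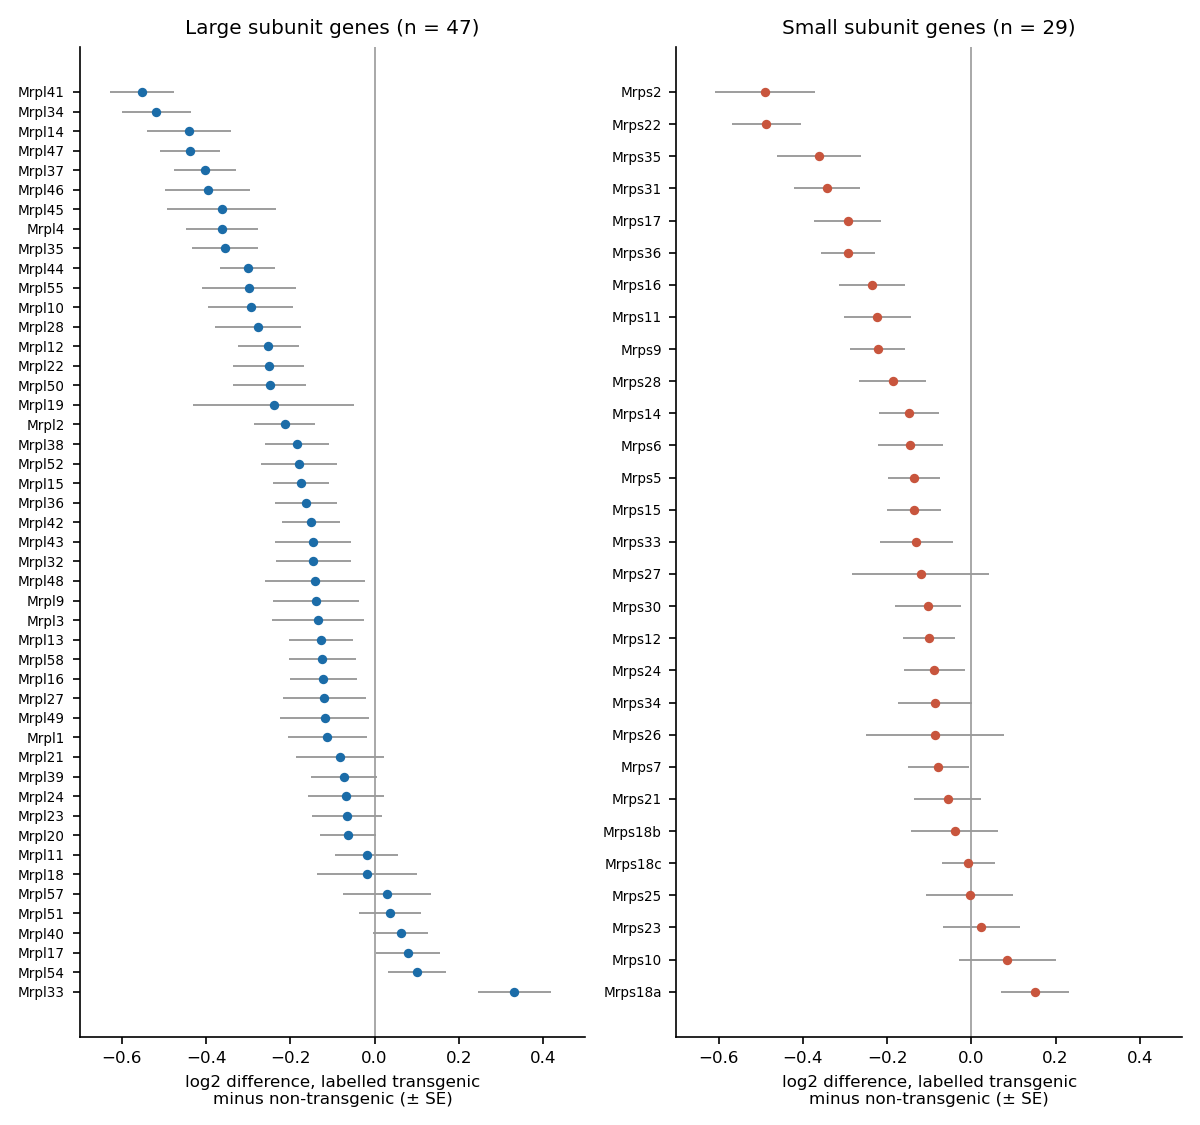
Difference of each of 47 large and 29 small subunit genes on the log2 scale (labelled transgenic minus non-transgenic, 3 arrays each), as points with the moderated standard error, sorted by size. All but 6 large and 3 small subunit genes lie left of 0, and Mrpl33 stands alone on the right at 0.33.

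The medians of the 6 arrays separated by group. With each gene set to its own mean over the 6 arrays, the large subunit genes had medians of -0.08, -0.13 and -0.05 on labelled transgenic arrays 1, 2 and 3, and of 0.15, 0.02 and 0.10 on non-transgenic arrays 1, 2 and 3. The small subunit genes had medians of -0.03, -0.10 and -0.07 against 0.13, 0.04 and 0.06. In both subunits the 3 labelled transgenic medians lay below the 3 others, and non-transgenic array 2 lay closest to them. Non-transgenic array 1 held the highest value of 47 of the 76 genes and the lowest of 0. The lowest value of a gene was on a labelled transgenic array in 64 of 76 genes, most often on array 2, with 29.

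**Figure D2:**
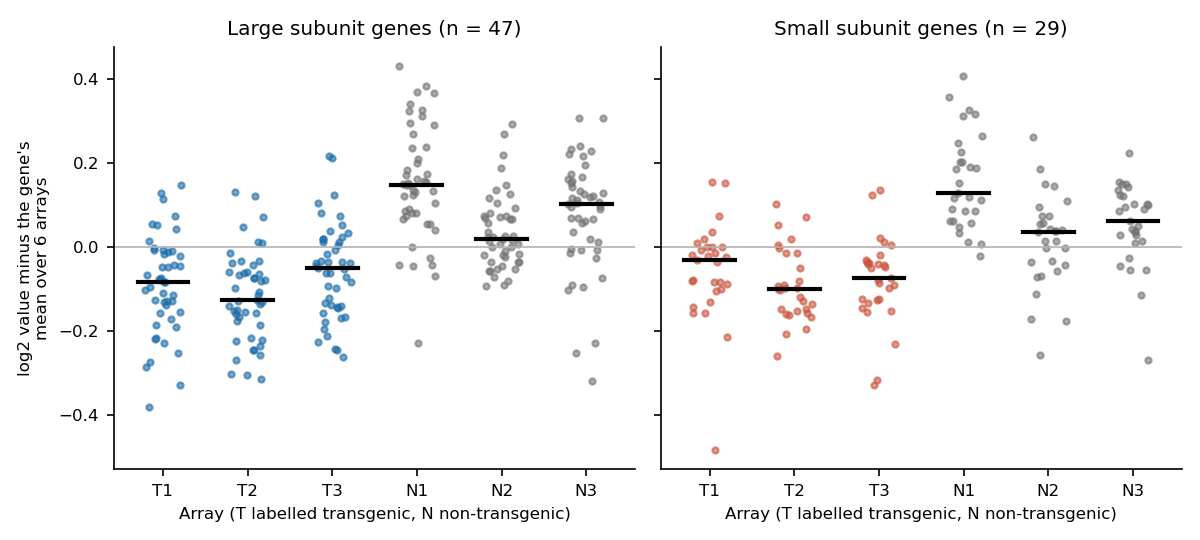
Log2 value of each gene minus that gene's mean over the 6 arrays (vertical axis) on labelled transgenic arrays T1 to T3 and non-transgenic arrays N1 to N3, with 1 point per gene and a black bar at the median. The bars of T1 to T3 lie below 0 and those of N1 to N3 above it in both subunits, with N1 highest.

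Among the large subunit genes, the lowest by moderated t included proteins of both kinds. Mrpl41, a protein that the bacterial ribosome lacks, was at 10.48, 10.63 and 10.65 on the labelled transgenic arrays and at 11.19, 11.13 and 11.10 on the others. The groups lay well apart, and the difference was -0.55 ± 0.08 (SE, n = 3 and 3), or 1.47-fold lower, with adjusted p = 0.0671 in limma. Its other probe set above the filter was at -0.43. Mrpl34, the counterpart of a bacterial large subunit protein, was at 9.63, 9.66 and 9.82 against 10.30, 10.18 and 10.18. Its difference was -0.52 ± 0.08 (limma, adjusted p = 0.078), again with no overlap between the groups, and its promoter window holds both an ETS match and 2 Zfp143 matches. Mrpl47, another protein with a bacterial counterpart, was at 8.68, 8.73 and 8.67 against 9.20, 9.04 and 9.15, a difference of -0.44 ± 0.07 (limma, adjusted p = 0.078). Mrpl37, of the mitochondria-specific kind, was at 8.67, 8.68 and 8.73 against 9.04, 9.04 and 9.20, a difference of -0.40 ± 0.07 (limma, adjusted p = 0.0893). The labelled transgenic values of Mrpl47 and Mrpl37 were tighter than the others, with SDs of 0.029 and 0.03 against 0.083 and 0.093. Mrpl35, with a bacterial counterpart, lay at -0.35 ± 0.08 and its 2 other probe sets at -0.17 and -0.07.

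Mrpl44, whose fold resembles that of ribonuclease III and whose variants cause infantile hypertrophic cardiomyopathy in humans, was at 9.91, 9.91 and 9.84 against 10.24, 10.16 and 10.17. The difference was -0.30 ± 0.06 (limma, adjusted p = 0.119), without overlap, and its 3 other probe sets were negative as well, from -0.46 to -0.13. Mrpl3, a core protein near the peptidyl transferase centre that is also tied to human cardiomyopathy, was at 10.56, 10.81 and 10.94 against 10.91, 10.86 and 10.95. Its groups overlapped, and the difference of -0.13 ± 0.11 had a 95% interval from -0.40 to 0.13. The 3 other Mrpl3 probe sets were at -0.002, -0.04 and -0.20, the first of them nearly as bright. Mrpl12, the stalk protein that also binds the mitochondrial RNA polymerase, was at -0.25 ± 0.07 with no overlap between groups (limma, adjusted p = 0.185). Mrpl58, a peptidyl-tRNA hydrolase built into the large subunit, was at -0.12 ± 0.08.

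Mrpl33 stood apart from the other members. This large subunit protein with a bacterial counterpart was at 10.99, 10.97 and 11.06 on the labelled transgenic arrays and at 10.61, 10.82 and 10.59 on the others. All 3 labelled transgenic values lay above the others, and the difference was 0.33 ± 0.09, or 1.26-fold higher (95% interval 0.12 to 0.54). On the brightest probe sets it was the only member gene higher at an unadjusted p under 0.05, at 0.00842. It did not pass over the array (limma, adjusted p = 0.161). Its window holds an ETS match that begins 3 bases before the start and runs across it. Mrpl54 was at 0.10 ± 0.07 without overlap, Mrpl17 at 0.08 ± 0.08 and Mrpl40 at 0.06 ± 0.07. For these 3 the 95% intervals reached from -0.07 to 0.27, from -0.10 to 0.26 and from -0.10 to 0.22.

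**Figure D3:**
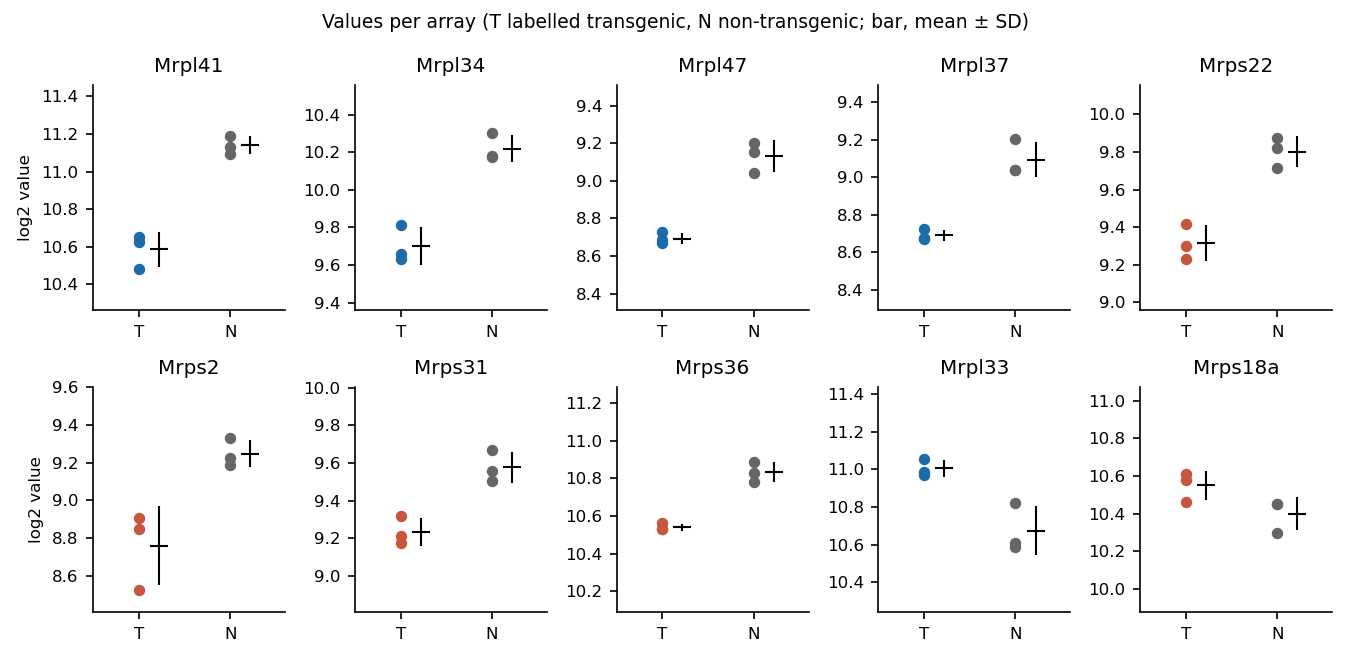
Log2 values of 10 member genes on the 3 labelled transgenic (T) and 3 non-transgenic (N) arrays, with the mean ± SD beside the points and the same span of 1.2 on every vertical axis. The first 8 genes lie lower in T and Mrpl33 and Mrps18a higher, with no overlap between the groups in any of the 10.

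Among the small subunit genes, Mrps22 had the lowest moderated t. This mitochondria-specific protein, also mutated in human cardiomyopathy, was at 9.42, 9.30 and 9.23 against 9.87, 9.82 and 9.71. The groups did not overlap, and the difference was -0.49 ± 0.08, or 1.4-fold lower (limma, adjusted p = 0.078). Its window, shown above, carries a Zfp143 match and an ETS match that begins 11 bases before the start. Mrps2, the counterpart of a bacterial protein, was at 8.52, 8.91 and 8.85 against 9.33, 9.19 and 9.23, with its lowest value on labelled transgenic array 1 and no overlap. Its difference was -0.49 ± 0.12 (limma, adjusted p = 0.145), with a second probe set at -0.46. Mrps31, of the mitochondria-specific kind, was at -0.34 ± 0.08, Mrps35 at -0.36 ± 0.10 and Mrps17, with a bacterial counterpart, at -0.29 ± 0.08, all without overlap. Mrps12, the decoding centre protein, was at -0.10 ± 0.06 with no overlap and an interval from -0.25 to 0.05.

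Some symbols do not name the subunit in which the protein sits. Mrps18a and Mrps30 are placed in the large subunit in mammalian ribosome structures, and the product of Mrps36 is now known as a subunit of oxoglutarate dehydrogenase. Mrps36 was at 10.53, 10.53 and 10.56 against 10.89, 10.78 and 10.83, a difference of -0.29 ± 0.06 without overlap (limma, adjusted p = 0.123). Of the 3 Mrps18 paralogs, Mrps18a was at 10.46, 10.58 and 10.61 against 10.45, 10.30 and 10.45, at 0.15 ± 0.08, with array values that only just failed to overlap. Mrps18b was at -0.04 ± 0.10 and Mrps18c at -0.01 ± 0.06, with intervals from -0.29 to 0.21 and from -0.16 to 0.15, and both overlapped. Mrps30 was at -0.10 ± 0.08. With Mrps18a and Mrps30 counted in the large subunit and Mrps36 left out, the large minus small difference of the medians was -0.012, over 49 and 26 genes.

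Proteins with and without a bacterial counterpart had similar medians. Over 29 large subunit genes with a counterpart the median was -0.15 (27 negative, 12 lower and 1 higher at an unadjusted p under 0.05), and over 18 mitochondria-specific ones it was -0.15 (14 negative, 7 lower). In the small subunit the medians were -0.14 over 16 genes with a counterpart (15 negative, 5 lower) and -0.10 over 10 without (9 negative, 3 lower). The shares over all genes tested were 47.6% negative, 7.76% lower and 10.4% higher. Proteins of the same ribosome that carry other names lay in the same range. Dap3, a GTP-binding small subunit protein, was at -0.21 ± 0.10, Ptcd3, a pentatricopeptide repeat protein, at -0.18 ± 0.12 and Gadd45gip1, at the exit of the peptide tunnel, at -0.10 ± 0.12. Chchd1 was at -0.17 ± 0.06 and alone of the 4 had no overlap, while Aurkaip1 was not analysed here.

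Several genes had probe sets that did not go the same way. Of 156 member probe sets, 127 passed the brightness filter and 29 did not, and each of the 76 genes kept at least 1. Of 31 genes with several probe sets above the filter, 20 had only negative differences, 11 had both signs and none had only positive ones. The signs were opposite and over 0.3 apart in 3 genes. Mrpl51 was at 0.04 ± 0.07 on its brightest probe set and at -0.34 and -0.42 on the others. Mrpl57 was at 0.03 ± 0.10 and at -0.50. Mrpl52 went the other way, at -0.18 ± 0.09 on the brightest and at 0.18 and 0.24 on the others. The direction of Mrpl52 thus depended on the probe set, and the counts by brightest probe set hold it as negative. Its probe set at 0.24 had no overlap between the groups (limma, unadjusted p = 0.00974). Mrps25 was negative on both, at -0.004 on the brightest probe set and at -0.44 on a dimmer one. Mrps23 was at 0.02 ± 0.09 on the brightest and at -0.09 and 0.11 on the others. Mrps10, with only 1 probe set above the filter, was at 0.09 ± 0.12. With a gene's probe sets averaged, 68 of 76 genes had a negative difference. Genes whose brightest probe set was of the plain type, made to match 1 transcript, had a median of -0.15 (47 genes), and those on probe sets that may match several transcripts -0.12 (29 genes).

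The genes that build and serve this ribosome leaned the same way. Of all genes tested, 47.6% had a negative difference. At an unadjusted p under 0.05 in limma, 7.76% of all genes were lower and 10.4% higher. Of 23 measured assembly factors 17 had a negative difference, with a median of -0.10, none passed in limma (6 lower and 0 higher at an unadjusted p under 0.05), and Mrm1, a methyltransferase of the large subunit rRNA, was at 7.35, 6.90 and 7.15 against 7.84, 7.65 and 7.72. Its difference of -0.60 ± 0.13 came without overlap, as did those of Mettl17, an assembly factor of the small subunit, at -0.50 ± 0.10 and of Mettl15, a methyltransferase of its rRNA, at -0.45 ± 0.09, whose other probe set was at -0.06. Of 12 translation factors 9 were negative, with a median of -0.10 and 3 lower at an unadjusted p under 0.05. These were Oxa1l, the insertase to which the ribosome docks, at -0.36 ± 0.11, and the elongation factors Tsfm at -0.28 ± 0.09 and Tufm at -0.28 ± 0.09. Tufm was at 10.36, 10.36 and 10.35 against 10.61, 10.52 and 10.78, so the non-transgenic arrays varied more.

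Of 19 genes that charge mitochondrial tRNAs 15 were negative, with a median of -0.10 and 3 lower at an unadjusted p under 0.05. Qrsl1, a subunit of the amidotransferase that makes glutaminyl-tRNA, was at 9.13, 9.36 and 9.16 against 9.90, 9.82 and 9.68. That is a difference of -0.58 ± 0.10 (limma, adjusted p = 0.078), with no overlap and a second probe set at -0.40. Fars2, the phenylalanine enzyme, was at -0.33 ± 0.11 with its other probe set at -0.12, and Lars2, the leucine enzyme, at -0.21 ± 0.06, with other Lars2 probe sets near 0. Of 23 genes of mitochondrial DNA copying, transcription and RNA handling 20 were negative, with a median of -0.18 and 6 lower at an unadjusted p under 0.05. Mterf2, a mitochondrial DNA-binding factor, was at -0.35 ± 0.09, the RNA helicase Supv3l1 at -0.32 ± 0.10 (its other probe set at -0.01), and Lrpprc, which keeps mitochondrial mRNAs stable, at -0.29 ± 0.09. None of the genes in these lists passed over the array in limma. Over all genes tested, 7.76% were lower and 10.4% higher at an unadjusted p under 0.05. Of 10 nuclear regulators of mitochondrial genes, 5 were negative and 5 positive, with 2 lower and 1 higher at an unadjusted p under 0.05. The 1 higher of 10 was near the share over all genes. The coactivator Ppargc1a was at 9.46, 9.24 and 9.14 against 9.74, 10.17 and 10.04, a difference of -0.71 ± 0.14 (limma, adjusted p = 0.107) with all 4 other probe sets between -0.85 and -0.58. The receptor Esrra was at -0.25 ± 0.08, with its other probe set at -0.04, and Yy1 at 0.25 ± 0.07 on its brightest probe set but between -0.21 and -0.19 on the others.

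The ribosomal proteins of the cytosol lay on the other side of 0. Over 41 cytosolic ribosomal protein genes the median was 0.07, with 7 negative and 34 positive. At an unadjusted p under 0.05 in limma 0 were lower and 3 were higher, a smaller share than the 10.4% of all genes that were higher. Set to each gene's mean, the median on labelled transgenic array 2 was -0.034, among the -0.036, -0.015 and -0.062 of the non-transgenic arrays, while labelled transgenic arrays 1 and 3 were at 0.087 and 0.063. Nuclear-encoded complex I genes, whose partner subunits the mitochondrial ribosome makes, had a median of -0.10 over 34 genes. Of these, 31 were negative (47.6% of all genes) and 10 lower at an unadjusted p under 0.05 (7.76% of all genes). The difference between these lists and the mitoribosomal genes was not tested.

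**Figure D4:**
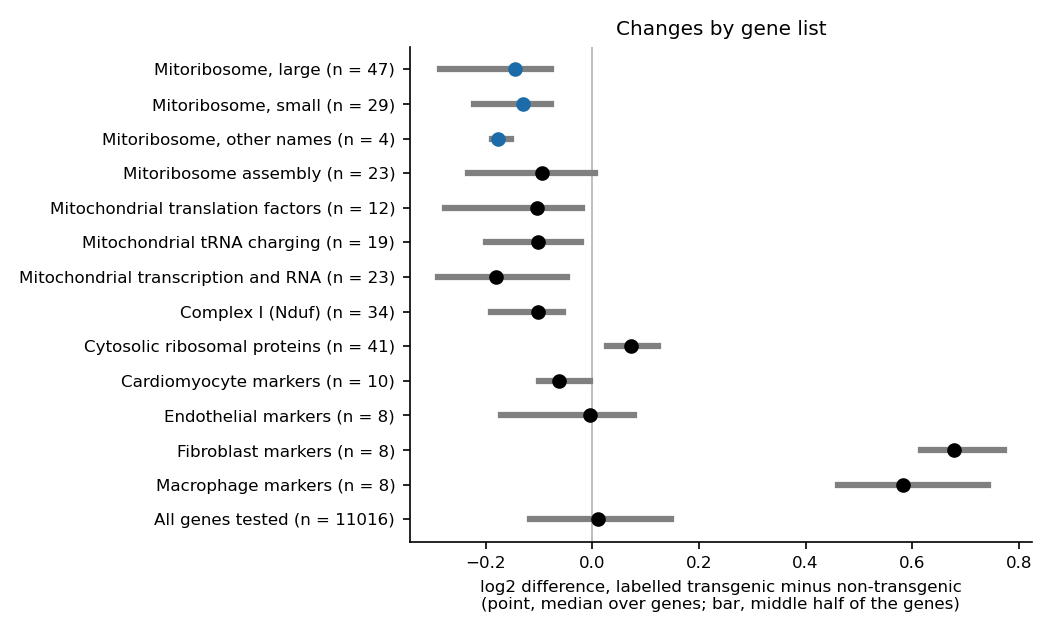
Median difference over the genes of each list on the log2 scale (point) with the middle 50% of its genes (bar), labelled transgenic minus non-transgenic. The large and small subunit genes lie at -0.15 and -0.13, the cytosolic ribosomal proteins at 0.07 and the fibroblast and macrophage markers at 0.68 and 0.58.

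Fibroblast and macrophage markers lay higher on the labelled transgenic arrays and endothelial markers did not, and no marker passed over the array in limma. At an unadjusted p under 0.05 in limma, 10.4% of all genes were higher. All 8 fibroblast markers had a positive difference (6 at an unadjusted p under 0.05), with a median of 0.68 and a summed level (log2 of the sum of unlogged values) of 14.08 to 14.43 on the labelled transgenic arrays against 13.67 to 13.86, with Lum, a collagen-binding proteoglycan, at 0.86 ± 0.23 and Col1a1, a fibrillar collagen, at 0.83 ± 0.29. All 8 macrophage markers had one too (7 at an unadjusted p under 0.05), with a median of 0.58 and sums of 12.74 to 12.99 against 12.33 to 12.45, with the lysosomal protein Cd68 at 0.96 ± 0.20 and the antibody receptor Fcgr1 at 0.94 ± 0.39. The groups of Fcgr1 overlapped, its 95% interval ran from -0.02 to 1.89, and its other probe set was at 0.05. The 10 cardiomyocyte markers had a median of -0.06, with 7 negative (47.6% of all genes) and 0 at an unadjusted p under 0.05 in limma. Their sums were 18.55 to 18.59 against 18.61 to 18.63, slightly lower on the labelled transgenic arrays without overlap. Ryr2, the calcium release channel, was at -0.29 ± 0.12 and Pln, which inhibits the calcium pump, at -0.12 ± 0.06. The 8 endothelial markers had a median of -0.005 and overlapping sums, with Kdr, a growth factor receptor, at 0.24 ± 0.20 and Pecam1, an adhesion molecule, at -0.20 ± 0.17. The 3' minus 5' difference of the actin control probe sets, a gauge of RNA integrity, was 0.94, 0.90 and 0.80 on the labelled transgenic arrays and from 0.97 to 1.05 on the others, without overlap. That of the Gapdh control probe sets was 0.114, 0.110 and 0.115 against 0.122, 0.110 and 0.164, with overlap. The part of cell makeup and RNA integrity in the mitoribosomal differences was not tested.

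The sign of both medians held under each setting tried, and their size moved with the fluidics station. With the station as a block the medians were -0.22 for the large and -0.21 for the small subunit, and 69 of 76 genes were negative. That fit sets the labelled transgenic arrays against non-transgenic array 1 alone, the array with the highest mitoribosomal values. Without that array the medians were -0.13 and -0.10, with 62 of 76 genes negative.

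**Figure D5:**
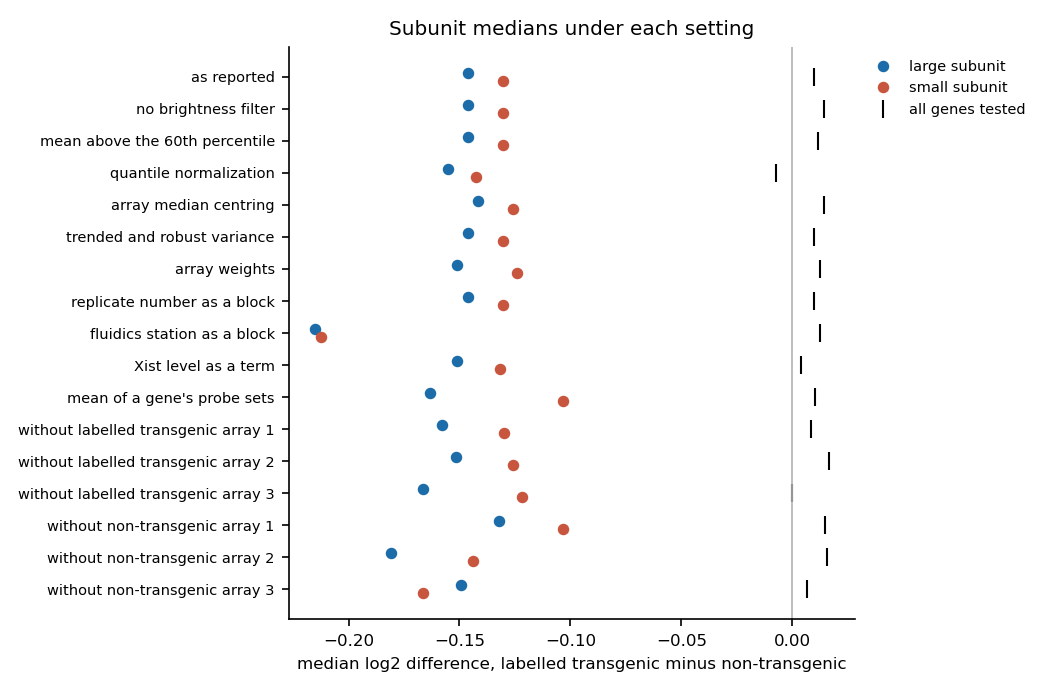
Median difference of the large and the small subunit genes and of all genes tested (horizontal axis, log2, labelled transgenic minus non-transgenic) as reported and under 16 alternative settings. Both subunits lie below -0.1 in each, all genes tested within 0.02 of 0, and the station block gives the lowest medians.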

How the data were processed

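Per the submitters' processing notes, the authors made the deposited log2 values with GCRMA, which corrects background by probe sequence and normalizes between arrays. Neither its version nor later steps are stated. The log2 scale was read from the values. The deposited instrument records, text fields that fall under other units, gave fluidics station, scan order and the typed name. Groups followed the sample titles.

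The 64 control probe sets were left out. The brightness filter kept the 22518 probe sets with a mean above log2 3.285, the median of all probe sets, and each gene was represented by its brightest one (11016 genes). Genes were named by the platform annotation, and all 156 member probe sets had a gene ID in the RefSeq table of GRCm38.p6. The test was limma's moderated one (version 3.58.1, R 4.3.3), 2-sided, with Benjamini-Hochberg adjustment over all probe sets kept and a threshold of 0.05. Values after ± are moderated standard errors unless given as SD. The fit was tested on simulated data, where it did not recover changes of about the size of the largest member differences, so a count of no calls does not show that the members did not differ. The number of arrays limits the precision.

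Members and gene lists were chosen with earlier results of these data known. Named were any member with an adjusted p under 0.05 and, per subunit, the 6 genes with the lowest and the 6 with the highest moderated t, fixed genes of interest, genes whose probe sets had opposite signs over 0.3 apart, the 3 genes with the smallest p in each list of mitochondrial gene expression and of regulators, and the 2 marker genes a list with the largest difference. Outside this rule, Mrpl46, Mrps11, Cyb5rl, Ncapd2, Ndufb5, Sars2 and the Zfp143 motif were picked once their values were known. Alternatives covered the filter, normalization, variance model, array weights, blocks, the Xist level, probe set means, subunit assignment and each array left out.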

Additional observations from a re-analysis of the deposited data

How the results depend on the processing

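The count of member probe sets called was 0 in limma, where 0.218% of all probe sets were called. At an unadjusted p under 0.05 it was 40, both directions together. Of all probe sets, 6.98% were lower and 9.41% higher at that threshold. The count of calls stayed 0 under the alternatives except with trended and robust variance. There it was 1, Mrpl41 (limma, adjusted p = 0.0426, and 0.196 at its highest under any alternative). Genes of mitochondrial gene expression stayed at 0 calls, where 0.227% of all genes were called in the main fit. At an unadjusted p under 0.05 in that fit, 19 were lower and 0 higher. These were 6 of 23 assembly factors, 3 of 12 translation factors and 3 of 19 genes of tRNA charging. The rest were 6 of 23 genes of transcription and RNA handling and 1 of 4 mitoribosomal genes with other names. At that threshold 7.76% of all genes were lower and 10.4% higher. The large and small subunit medians stayed negative. They moved by more than the spread between replicates only with the fluidics station as a block, to -0.215 and -0.212. That fit leaves non-transgenic array 1 as the only comparator, since station 3 served only non-transgenic arrays 2 and 3. With a gene's probe sets averaged the large minus small subunit median change was -0.060, which moved by more than the spread between replicates (SD 0.035). With single arrays left out the medians ran from -0.18 to -0.13 (large), from -0.17 to -0.10 (small) and the difference from -0.044 to 0.017. The replicate numbers were not taken to pair the arrays (correlations of same-numbered deviations -0.083, -0.174 and -0.007). With the replicate block the medians were -0.146 and -0.131, and 0 probe sets of all were called against 49. Over all probe sets the count was 15 with no filter, 99 above the 60th percentile, 102 with trended variance, 2 with the station and 0 with the Xist term, and from 0 to 75 with single arrays left out.

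Of 61 named genes 49 kept their sign under all 16 alternatives. The sign turned with a gene's probe sets averaged in Mrpl57 (-0.23), Mrpl51 (-0.24), Mrpl52 (0.081) and Yy1 (-0.085). It turned with the station as a block in Mrpl51 (-0.055), Mrps23 (-0.14), Mrps10 (-0.044), Kdr (-0.11) and Pecam1 (0.14), with the Xist term in Mrps18c (0.0033) and Mrps25 (0.0080), and in Mrps25 with median centring (0.00037) and array weights (0.0072). With single arrays left out it turned in Mrpl57 (range -0.070 to 0.090), Mrps18b (-0.11 to 0.031), Mrps18c (-0.026 to 0.0097), Mrps25 (-0.082 to 0.067), Mrps23 (-0.028 to 0.11), Mrps10 (-0.022 to 0.15) and Gadd45gip1 (-0.20 to 0.00022). The cause was not tested.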

Other observations

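Of the 67 mitoribosomal genes with a promoter window, 26 had the start of another gene on the opposite strand within 1000 bases in the RefSeq table, and 20 of these neighbours were measured. The share of all genes with such a neighbour was not computed. Mrpl46 and Mrps11, of the large and the small subunit, start 42 bases apart and were both lower without overlap between groups, Mrpl46 at 9.07, 9.18 and 9.22 against 9.73, 9.41 and 9.52 (-0.40 ± 0.10) and Mrps11 at 8.27, 8.23 and 8.30 against 8.60, 8.39 and 8.47 (-0.22 ± 0.08). Of the 20 measured neighbours, which include this pair, 15 had a negative difference (47.6% of all genes tested), with a median of -0.11. None passed in limma, and 4 were lower at an unadjusted p under 0.05 (7.76% of all genes), of which Mrpl46 and Mrps11 are members themselves. The other 2 were Cyb5rl, beside Mrpl37, at -0.55 ± 0.22 and dim, and Ncapd2, a condensin subunit beside Mrpl51, at -0.32 ± 0.13. Ndufb5, a complex I subunit beside Mrpl47, was at -0.009 where Mrpl47 was at -0.44, and Sars2, the serine enzyme of mitochondrial tRNA charging beside Mrps12, was at -0.09.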
